A study of Mus musculus with 12 samples.

Results

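The T-box genes encode transcription factors that share a DNA-binding domain, the T-box, first known from Brachyury. The 10 genes Tbx1, Tbx2, Tbx3, Tbx4, Tbx5, Tbx6, Tbx10, Tbx15, Tbx18 and Tbx20 were taken by gene symbol, with the highest-mean probeset per gene, from the 19938 genes with a single-symbol probeset on the array. They were chosen by family name after the Tbx20 difference between VdR and R tumors was already known, so that difference is given as a description without a test. Members and the further gene lists below were chosen with earlier results of these data known, so their other p-values and counts may not be independent of the choice. A probeset was named for 9 of the 10 genes and each had only 1, so the choice of the highest mean decided nothing. Tbx10 had no probeset named by the annotation used and was not analysed here.

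Subcutaneous tumors were grown from J2A cells, a single line of aortic fibroblasts of C57BL/6 origin that lack the p16 and p19 tumor suppressors and the pantetheinase Vnn1, an enzyme that releases the coenzyme A precursor pantothenate from pantetheine. Cells of all 3 groups carried oncogenic RasV12. They had in addition intact Vnn1 (VR), catalytically deficient Vnn1 (VdR), or no Vnn1 (R). Genes were introduced with retroviral vectors, and 2000000 cells were grafted on the back of each nude mouse under normal diet. By the labels, tumors were taken between 2 and 3 weeks, depending on growth, whereas the study's methods give a single harvest day at the end of that range. The paper reports that VR tumors grew poorly and R and VdR tumors aggressively, so tumor age or size at harvest may differ between groups. There were 4 tumors per group, numbered 1, 2, 4 and 5, with 1 array each. Since each group came from 1 transduced line, the tumors replicate the graft and not the transduction, and p-values measure only the spread between these grafts. Nude hosts lack T cells but keep macrophages and NK cells. The labels speak of RNA from sorted cell subsets, whereas the study's methods describe RNA of tumors, so a mixture of grafted and host cells was assumed.

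Values were log2 intensities normalised by RMA, and the 25th percentile of all values, 5.38, served as the limit of low signal. Array medians lay between 6.66 and 6.77 in VR, 6.71 and 6.75 in VdR, and 6.68 and 6.74 in R tumors, and arrays of a group correlated at 0.992 to 0.997. Vnn1, the check of the labels, lay between 10.54 and 11.26 in VR, 11.37 and 11.73 in VdR, and 5.53 and 5.83 in R tumors. Since VR and VdR cells both received a form of Vnn1, this checks the R label but not which tumors are VR and which VdR. The fibroblast markers averaged 11.65 to 11.85 in VR, 11.33 to 11.56 in VdR and 11.22 to 11.46 in R tumors. Fibroblast RNA was thus present in each tumor, but these markers cannot tell grafted from host fibroblasts.

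T-box factors act as activators or repressors of genes that hold a T-site in their regulatory DNA, and several are needed in dose-dependent fashion during development. Tbx20, Tbx5, Tbx18 and Tbx1 are known from the heart and its outflow tract, Tbx2 and Tbx3 are repressors that also restrain senescence genes of the p16/p19 locus, which these cells lack, and Tbx4, Tbx15 and Tbx6 are known from hindlimb and lung, from skin and skeleton, and from somites. In adult connective tissue, T-box genes often stay on as traces of where a fibroblast came from.

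All 9 measured genes lay above the 25th percentile on average, and 8 of them did so in every one of the 12 arrays. Tbx5 lay just inside, with a mean of 5.384, and exceeded the limit in 4 of 12 arrays, 2 of VR, 0 of VdR and 2 of R tumors. No listed gene lay just outside. The nearest family members below it were Tbx19, at 5.306 on average, and Tbx22, at 5.022, neither of which belongs to the 10 genes or was tested.

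**Figure D1:**
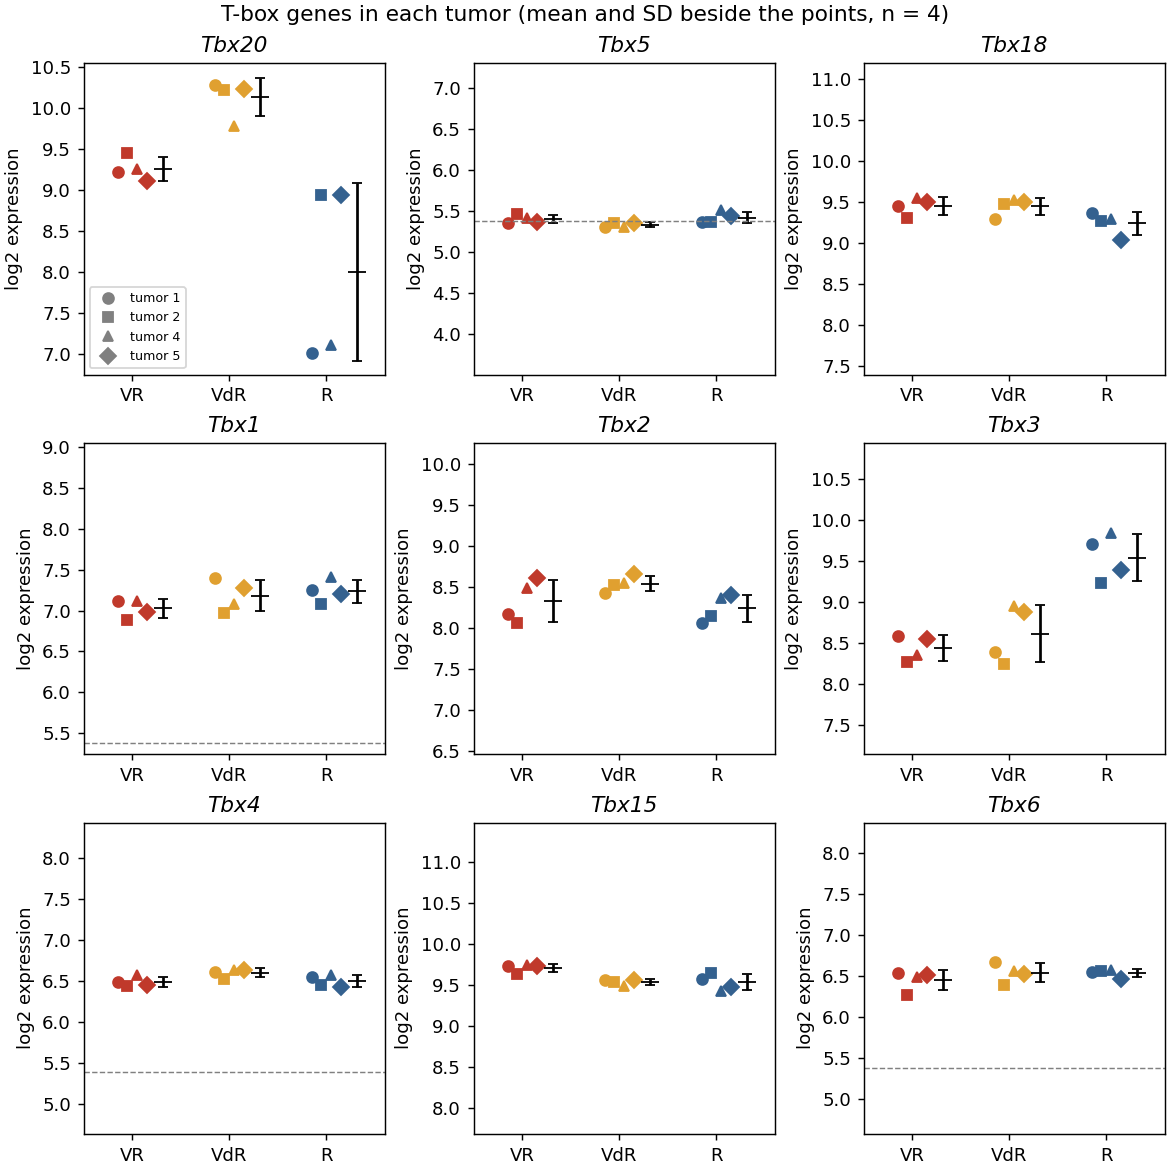
Log2 intensity of the 9 measured T-box genes in each tumor (y axes of equal span, marker shape giving the tumor number), with VR, VdR and R tumors from left to right, the group mean and SD beside the points, and the 25th percentile of all values as a dashed line. Tbx20 was lowest and most spread in R tumors (7.01 to 8.94), Tbx3 was highest in R tumors (9.23 to 9.85), and the other genes moved little.

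Tbx20 was higher and Tbx3 lower in tumors with either form of Vnn1 relative to R tumors, and Tbx15 was slightly higher in VR relative to R tumors. In VR against R tumors, 2 of the 9 genes were higher and 1 was lower, at an adjusted p below 0.05 in limma over 16573 genes. The background was 13.6% of all tested genes higher and 7.48% lower. The R tumors that enter the Tbx20 call are those of the difference known beforehand, so that call is not independent of the choice of genes. In VdR against R tumors Tbx20 is left out of the count, and of the other 8 genes 0 were higher and 1, Tbx3, was lower, where 6.58% and 2.81% of all genes were. In VR against VdR tumors, 0 of 9 genes passed in either direction, against 1.77% higher and 1.67% lower among all genes, and 3 had an unadjusted p below 0.05 (Tbx4, Tbx15 and Tbx20). The median log2 difference of the 9 genes was -0.015 in VR against R, 0.004 in VdR against R and -0.12 in VR against VdR tumors, beside -0.015, 0.004 and -0.018 over all genes. The 9 genes had no common direction.

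**Figure D2:**
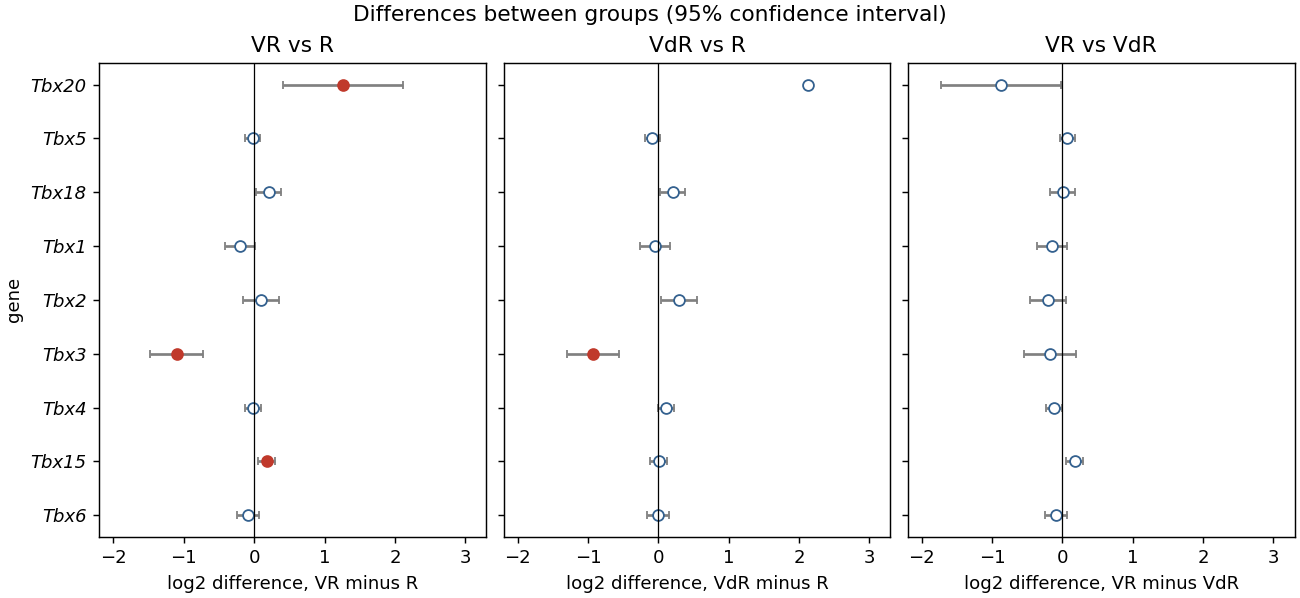
Log2 differences (x axis) of the 9 T-box genes in VR against R, VdR against R and VR against VdR tumors, with 95% confidence intervals, filled red where limma's adjusted p was below 0.05. Tbx20 in VdR against R tumors (2.13) is drawn without interval or call, since it was known when the genes were chosen, and Tbx3 is the gene below 0 in both comparisons with R.

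Tbx20 is needed in mouse heart for chamber growth and valve formation, and acts with Tbx5 and Gata factors. Its promoter window and that of Tbx18, a gene of the epicardium and of vascular mural cells, are shown because both genes are of the heart, both lie on chromosome 9, and only Tbx20 was called. They are not neighbours, with 612 protein-coding genes between them in the GRCm38.p6 RefSeq annotation. The windows hold 300 bases, mostly before and partly after the RefSeq start, on the minus strand, at chr9:24774254-24774553 and chr9:87731211-87731510, with CpG pairs in capitals:
Tbx20: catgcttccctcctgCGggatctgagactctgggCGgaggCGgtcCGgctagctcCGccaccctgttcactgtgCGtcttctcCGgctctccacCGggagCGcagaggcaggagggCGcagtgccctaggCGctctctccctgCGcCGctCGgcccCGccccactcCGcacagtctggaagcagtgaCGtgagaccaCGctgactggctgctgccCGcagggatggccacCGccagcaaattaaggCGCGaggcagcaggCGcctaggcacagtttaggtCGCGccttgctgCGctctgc
Tbx18: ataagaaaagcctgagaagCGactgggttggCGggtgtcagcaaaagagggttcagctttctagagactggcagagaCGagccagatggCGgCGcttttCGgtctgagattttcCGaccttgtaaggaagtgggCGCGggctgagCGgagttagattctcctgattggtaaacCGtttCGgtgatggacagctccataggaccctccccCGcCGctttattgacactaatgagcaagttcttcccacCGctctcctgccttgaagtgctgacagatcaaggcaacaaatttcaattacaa
The Tbx20 window held 26 CpG and 68.3% G or C, and 83.1% of all 32851 windows held fewer CpG. The Tbx18 window held 15 CpG and 51.7% G or C, with 65.4% of windows below it and a median of 7. RefSeq windows were given for 6 of the 10 genes (7 windows, 2 of them for Tbx1). On either strand, the T-site AGGTGTGA and its core GGTGTG, which lies within it, were found in 0 of these 7, against 1.28% and 19.05% of all windows. GGGCGG, a GC box, was found in 4, those of Tbx20, Tbx4, Tbx1 and Tbx10, against 35.66% of all, and TATAAA in 2, those of Tbx6 and Tbx4, against 13.62%. These matches describe letters and not binding.

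Tbx20 had log2 values of 9.22, 9.45, 9.25 and 9.11 in VR tumors 1, 2, 4 and 5. In VdR tumors it had 10.28, 10.22, 9.78 and 10.24, and in R tumors 7.01, 8.94, 7.11 and 8.94. Every VR and VdR tumor lay above every R tumor, and every VdR tumor above every VR tumor. The R tumors fell into a low pair, tumors 1 and 4, and a high pair, tumors 2 and 5, so that the SD was 1.09 in R tumors, beside 0.14 in VR and 0.23 in VdR tumors. Group means were 9.26 in VR, 10.13 in VdR and 8.001 in R tumors (n = 4 each).

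Tbx20 was 2.39-fold higher in VR relative to R tumors (log2 difference 1.26, SE 0.39, adjusted p = 0.0395, limma). This was past the threshold in 8 of 17 alternative settings, with adjusted p between 0.0015 and 0.117, and without R tumor 1 or 4 the log2 difference was 0.93 or 0.96 (adjusted p = 0.106 and 0.117). It shares its R tumors with the known difference and is not independent of it. In VdR tumors Tbx20 was 4.38-fold above R tumors, a log2 difference of 2.13. VR lay below VdR by a log2 difference of -0.87 (95% confidence interval -1.73 to -0.02), which missed the threshold (adjusted p = 0.249, limma) in the fit over all 3 groups, whose spread includes that of the R tumors. With only VR and VdR tumors fitted it passed (adjusted p = 0.0157). The VdR tumors of this comparison are also those of the known difference.

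Group means of macrophage markers had the same order as those of Tbx20, and skeletal muscle markers split the R tumors as Tbx20 did. The mean of 13 macrophage genes was 9.94 to 10.07 in VR, 10.06 to 10.37 in VdR and 8.98 to 9.29 in R tumors. Of these 13, 11 were higher in VR and 12 in VdR relative to R tumors, beside 13.6% and 6.58% of all genes. Among them in VdR tumors were Adgre1, which encodes the macrophage antigen F4/80 (1.55, adjusted p = 4.31e-05), and Csf1r, the receptor that macrophages need to survive (1.31, adjusted p = 4.31e-05). No macrophage gene averaged below the 25th percentile. Within R, tumors 2 and 5, high in Tbx20, had macrophage means of 9.29 and 9.22, and tumors 1 and 4 had 8.998 and 8.981. Within VdR, the macrophage means of tumors 1, 2, 4 and 5 were 10.14, 10.30, 10.37 and 10.06. Tumor 4, the highest of them, had the lowest Tbx20 of that group. The same tumors of VR had 10.04, 10.07, 9.94 and 9.96, and tumor 2 was highest in both. The mean of 8 skeletal muscle genes was 9.14 and 8.18 in R tumors 2 and 5, and 6.62 and 6.59 in R tumors 1 and 4. In VdR tumors, where Tbx20 was highest, it was 6.58, 8.66, 9.21 and 6.52 for tumors 1, 2, 4 and 5, and in VR tumors 6.58, 8.30, 6.45 and 6.46. Of the 8 muscle genes, 0 passed in any comparison. The part of these cells in the Tbx20 values was not tested, and in such bulk RNA fewer cells of a type and less RNA per cell cannot be told apart.

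**Figure D3:**
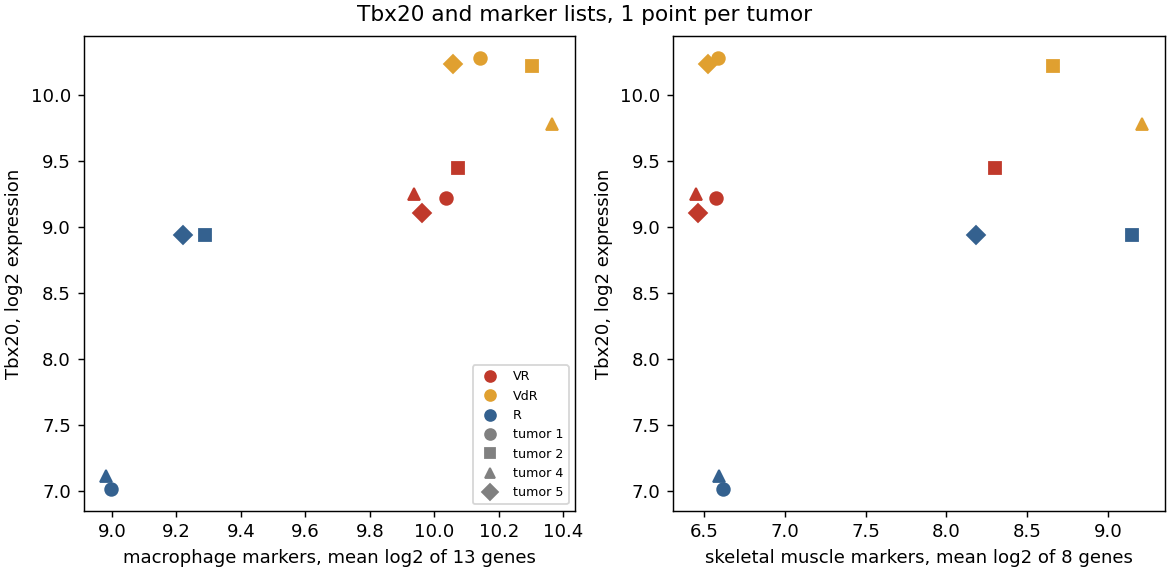
Log2 intensity of Tbx20 (y axis) in each of the 12 tumors against the mean log2 intensity of 13 macrophage genes and of 8 skeletal muscle genes (x axes), coloured by group. R tumors 2 and 5 lie above R tumors 1 and 4 in Tbx20 and in both means, whereas VdR tumors have high Tbx20 at muscle means between 6.52 and 9.21.

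Most heart muscle genes did not pass. The mean of 8 heart muscle genes was 6.57 to 6.69 in VR, 6.57 to 6.77 in VdR and 6.71 to 6.85 in R tumors. The 1 that passed was Tnnt2, cardiac troponin T, which was lower in VR (-0.83, adjusted p = 0.00142) and in VdR (-0.62, adjusted p = 0.0124) relative to R tumors. Of all genes, 7.48% were lower in VR and 2.81% in VdR relative to R tumors. Endothelial genes averaged 9.15 to 9.54 in VR, 8.84 to 9.13 in VdR and 8.70 to 9.29 in R tumors. Of 10, Tek and Kdr were higher in VR relative to R tumors, beside 13.6% of all genes. In VdR against R tumors 0 passed, beside 6.58% higher and 2.81% lower among all genes. In VR against VdR tumors, 1 was higher, Tek, beside 1.77% of all genes.

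The genes whose pattern over the 12 tumors was most like that of Tbx20 were Nfxl1 (Pearson r = 0.967, Spearman rho = 0.881), Ada, adenosine deaminase (0.951 and 0.937), and Fuca2, a fucosidase (0.942 and 0.783). With group means removed, r was 0.916 for Nfxl1, 0.836 for Ada and 0.903 for Fuca2. The Tbx20 spread then left was mainly that of the R tumors (SD 1.09, beside 0.14 in VR and 0.23 in VdR tumors). These values thus largely restate the split of the R tumors. The points of these genes share their arrays. The genes were picked for the highest r among all tested genes, and r over the 12 tumors includes the Tbx20 difference known beforehand.

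Tbx5, the gene of heart septation and forelimb growth and a partner of Tbx20, stayed at the limit of low signal. It had 5.36, 5.46, 5.41 and 5.37 in VR, 5.30, 5.36, 5.31 and 5.36 in VdR, and 5.37, 5.36, 5.51 and 5.44 in R tumors. All 4 VdR values lay below all 4 R values, by a log2 difference of -0.09 (adjusted p = 0.328). A difference was not detectable at this signal.

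Tbx18 had 9.46, 9.30, 9.55 and 9.50 in VR, 9.29, 9.48, 9.53 and 9.50 in VdR, and 9.37, 9.27, 9.29 and 9.04 in R tumors. The differences from R were 0.21 in VR (adjusted p = 0.0907, limma) and 0.21 in VdR tumors (adjusted p = 0.147), with overlapping groups. Mural cell genes, such as Rgs5 of pericytes, were not uniform either. Of 12, 2 stood higher and 1 lower in VR relative to R tumors, 0 and 1 in VdR against R tumors, and 1 and 0 in VR against VdR tumors. Among all genes the shares were 13.6% and 7.48%, 6.58% and 2.81%, and 1.77% and 1.67%. With counts this small nothing is read as particular to mural cells. Rgs5 was the gene lower in both comparisons with R (-0.40 in VR and -0.95 in VdR tumors). Of 11 tested epicardial genes, 1 was higher in VR relative to R tumors (Sema3d, a semaphorin, 1.31, adjusted p = 0.00886), and 1 in VdR relative to R tumors (Aldh1a2). Beside them, 13.6% and 6.58% of all genes were higher.

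Tbx1, which patterns the pharyngeal arches and outflow tract in mice, lay between 6.89 and 7.12 in VR, 6.97 and 7.40 in VdR, and 7.08 and 7.40 in R tumors. Its difference was -0.21 in VR against R tumors (adjusted p = 0.156) and -0.05 in VdR against R tumors (adjusted p = 0.806). No comparison of Tbx1 passed.

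Tbx3 fell in both comparisons with R tumors. It is a repressor that limits senescence, and mice need it in limb, mammary gland and conduction system. It had 8.59, 8.28, 8.35 and 8.55 in VR tumors 1, 2, 4 and 5. In VdR tumors it had 8.39, 8.25, 8.95 and 8.89, and in R tumors 9.71, 9.23, 9.85 and 9.39. All VR and VdR tumors lay below all R tumors, and VR and VdR tumors overlapped.

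Tbx3 was 2.15-fold lower in VR relative to R tumors (log2 difference -1.10, SE 0.17, adjusted p = 0.00108, limma) and 1.9-fold lower in VdR relative to R tumors (-0.93, SE 0.17, adjusted p = 0.00514). The exact permutation p was 0.0286 in each (two-sided), the smallest that 4 against 4 tumors allow. Both calls held in 17 of 17 alternative settings, from -1.21 to -1.003 in VR and from -1.04 to -0.80 in VdR against R tumors. Several of these settings leave the difference itself unchanged and are not separate checks of its size. VR and VdR tumors differed by -0.18 (adjusted p = 0.626). In R tumors, the low Tbx3 values belonged to tumors 2 and 5, the tumors with the higher Tbx20, macrophage and skeletal muscle values given above. In VdR tumors, tumor 4, highest in Tbx3 (8.95), had the highest macrophage (10.37) and muscle (9.21) means. VdR tumor 2, the lowest (8.25), had 10.30 and 8.66. In VR tumors, tumor 2, the lowest (8.28), had the highest means (10.07 and 8.30), and tumor 1, the highest (8.59), had 10.04 and 6.58. The part of those cells in Tbx3 was not tested.

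**Figure D4:**
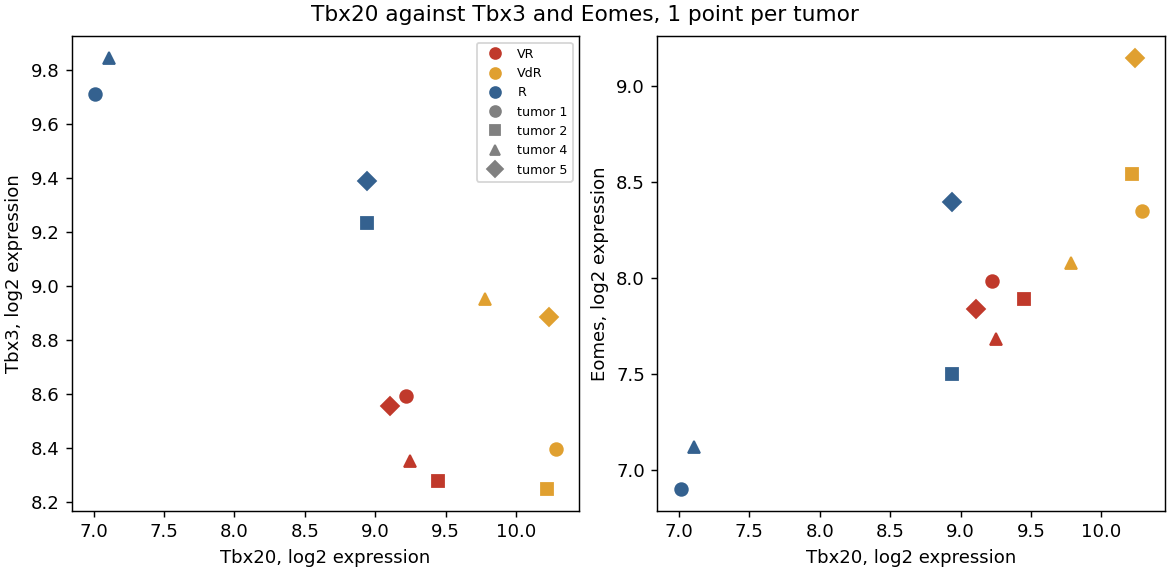
Log2 intensity of Tbx3 and of Eomes (y axes) against that of Tbx20 (x axes) in each of the 12 tumors, coloured by group and with marker shape giving the tumor number. Over the 12 tumors r was -0.797 with Tbx3 and 0.861 with Eomes, and the R tumors lie apart at high Tbx3. Both r include the Tbx20 difference between VdR and R tumors known beforehand.

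Tbx20 and Tbx3 ran in opposite directions across the tumors, with Pearson r = -0.797 and Spearman rho = -0.699 over 12 tumors that share their arrays. Both values include the Tbx20 difference between VdR and R tumors known beforehand, and are given only as a description. With group means removed r was -0.675, where the Tbx20 spread was mainly that of the R tumors. The genes most like Tbx3 were Cavin4, a caveolar protein of muscle (r = 0.972, rho = 0.958), Prxl2c (0.969 and 0.937) and Osbp2, an oxysterol-binding protein (0.968 and 0.958). With group means removed, r was 0.866 for Cavin4, 0.847 for Prxl2c and 0.904 for Osbp2. These genes were picked for the highest r among all tested genes in the same tumors. High values thus follow from the choice, and r with group means removed is no independent check.

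Tbx2, the closest relative of Tbx3, did not follow it. It had 8.18, 8.07, 8.49 and 8.61 in VR, 8.43, 8.53, 8.56 and 8.66 in VdR, and 8.06, 8.15, 8.37 and 8.40 in R tumors. All VdR values lay above all R values, by 0.30 (95% confidence interval 0.04 to 0.56, adjusted p = 0.147, limma), which passed only when arrays were weighted or a replicate block was used. VR differed from R tumors by 0.09 (adjusted p = 0.6). Tbx2 lies beside Tbx4, and Tbx3 beside Tbx5, with 0 protein-coding genes between on chromosome 11 and on chromosome 5. The neighbours had r = 0.476 for Tbx2 with Tbx4, and 0.341 for Tbx3 with Tbx5, over the 12 tumors, and 0.139 and 0.066 with group means removed.

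Tbx15, which in mouse shapes the skin's pigment pattern and the skeleton, was tightly reproducible. It had 9.73, 9.64, 9.74 and 9.74 in VR, 9.57, 9.54, 9.50 and 9.56 in VdR, and 9.58, 9.65, 9.43 and 9.48 in R tumors. VR tumors lay above VdR tumors throughout, and overlapped R tumors only through VR tumor 2 and R tumor 2. The increase was 1.13-fold in VR over R tumors (log2 difference 0.18, SE 0.05, adjusted p = 0.0385, limma; exact permutation p = 0.0571), and it passed in 6 of 17 alternative settings, with adjusted p between 0.0158 and 0.112. VR against VdR tumors gave 0.17 (adjusted p = 0.104) and VdR against R tumors 0.004 (adjusted p = 0.976).

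Most fibroblast genes, like Tbx15, were higher in VR relative to R tumors. Of 8 measured, 6 were, beside 13.6% of all genes, among them Thy1 (0.80), Col3a1 (0.54), Col1a1 (0.54) and Dcn (0.32). Fap (0.05) and Postn (0.26) did not pass. In VdR against R tumors 0 of the fibroblast genes were higher, beside 6.58% of all genes. In VR against VdR tumors 2 were, beside 1.77%. The part of fibroblast genes in the Tbx15 difference was not tested. Most like Tbx15 over the 12 tumors were Ttc28 (r = 0.939, rho = 0.888), Srpx2 (0.939 and 0.881) and Acot6, an acyl-CoA thioesterase (0.912 and 0.888), with r of 0.816, 0.840 and 0.787 once group means were removed. They too were picked for the highest r in these tumors, so high values follow from the choice.

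Tbx4 had 6.43 to 6.57 in VR, 6.53 to 6.64 in VdR and 6.42 to 6.57 in R tumors, with differences of -0.02 in VR (adjusted p = 0.862) and 0.10 in VdR against R tumors (adjusted p = 0.269). VR against VdR gave -0.12 (adjusted p = 0.249). Tbx6, which commits cells to the paraxial mesoderm, had 6.27 to 6.54 in VR, 6.39 to 6.68 in VdR and 6.47 to 6.57 in R tumors. Its differences were -0.08 and 0.002 against R tumors (adjusted p = 0.422 in VR and 0.993 in VdR), and both genes overlapped between VR and R and between VdR and R tumors.

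The T-box genes outside the 10 held 1 further call. Of 7 listed, 6 were measured and 4 tested. Of all genes, 6.58% were higher in VdR relative to R tumors. Eomes, which guides mesoderm, and NK and CD8 T cells, had 7.99, 7.89, 7.68 and 7.84 in VR, 8.35, 8.54, 8.08 and 9.15 in VdR, and 6.90, 7.50, 7.12 and 8.40 in R tumors. It was higher in VdR relative to R tumors by 1.05 (SE 0.28, adjusted p = 0.0381, limma), with overlapping groups, and this passed in 8 of 17 alternative settings, with adjusted p between 0.00221 and 0.112. In VR against R tumors the difference was 0.37 (adjusted p = 0.372). Its r with Tbx20 was 0.861 (rho 0.783) over the 12 tumors, a value that includes the Tbx20 difference known beforehand. With group means removed it was 0.727, where the Tbx20 spread was again mainly that of the R tumors. Mga, Tbx21 and Tbr1, the other 3 tested, did not pass in any comparison.

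Genes of T and NK cells, which also express Eomes, were mixed. Of 10 T and NK cell genes, 4 averaged below the 25th percentile and 6 were tested, and the mean of the 10 lay between 6.00 and 6.10 in VR, 5.74 and 6.01 in VdR, and 5.71 and 5.89 in R tumors. Il2rb and Ncr1, NK receptors, were higher in VR relative to R tumors (1.56 and 1.33), and Cd8a was lower (-0.63). Il2rb was higher (0.95) and Cd8a lower (-0.60) in VdR relative to R tumors, and Ncr1 was higher in VR than in VdR tumors (0.96). Of all genes, 13.6% were higher and 7.48% lower in VR, and 6.58% and 2.81% in VdR, relative to R tumors. In VR against VdR tumors 1.77% of all genes were higher. The part of T and NK cells in Eomes was not tested.

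Among 20 heart and limb partners of T-box factors, 2 were higher and 3 lower in VR relative to R tumors, 1 and 1 in VdR against R tumors, and 0 in VR against VdR tumors. Beside them stand the shares of all genes, 13.6% higher and 7.48% lower in VR against R, and 6.58% and 2.81% in VdR against R tumors, and with counts this small nothing is read as particular to the list. Mef2c, which controls muscle and vessel genes, was higher in VR (0.86, adjusted p = 0.00162) and in VdR tumors (0.88, adjusted p = 0.00247) relative to R tumors. Sall1, a zinc finger factor of limb and kidney, was lower in VR (-0.59, adjusted p = 0.000886) and in VdR (-0.56, adjusted p = 0.00178). Tle1, a co-repressor, and Isl1, of the second heart field, were lower in VR relative to R tumors (-0.39 and -0.23). The median difference over the list was -0.13 in VR and -0.07 in VdR against R tumors, and -0.06 in VR against VdR tumors.

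Of 26 tested genes linked to T-box factors in mouse development, 3 were higher and 4 lower in VR relative to R tumors, where 13.6% and 7.48% of all genes were. In VdR against R tumors 2 were higher and 3 lower, where 6.58% and 2.81% of all genes were, and nothing is read as particular to this list either. Those lower in both were Lef1, a Wnt effector (-1.38 in VR, -0.82 in VdR), Bmp2, a bone morphogenetic ligand (-2.62 in VR, -1.65 in VdR), and Hey1, a Notch effector that marks the chambers (-0.70 in VR, -0.90 in VdR). Fgf10, a limb and lung growth factor downstream of Tbx4 and Tbx5, was higher in VR than in R (0.47, adjusted p = 0.00271) and than in VdR tumors (0.57, adjusted p = 0.0118). Aldh1a2, a retinoic acid synthesis enzyme, was higher in VdR than in R (1.23, adjusted p = 0.0312) and lower in VR than in VdR tumors (-1.72, adjusted p = 0.0192). In VR against VdR tumors these were the 1 higher and 1 lower gene of the list. Of 7 tested skin epithelium genes, 1 was higher in VR relative to R tumors (Cdh1, E-cadherin, 0.41, adjusted p = 0.0346), beside 13.6% of all genes. In the other comparisons 0 passed.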

How the data were processed

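Tumor RNA of 12 mice was amplified with NuGEN reagents and hybridised to 1-colour Affymetrix arrays. The authors deposited log2 values made with RMA in the R package oligo (versions and genome build are not given in the sources used here), and these values were used as deposited. Of 35556 probesets, the platform annotation gave 1 symbol to 21789, several to 1621 and no symbol to 12146. For each of 19938 genes the single-symbol probeset of highest mean was kept, and 16573 genes above the 25th percentile (5.38) in at least 4 arrays were tested. Array values carry no read depth, and the 4 arrays per group limit the precision.

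One linear model over the 3 groups was fitted with limma 3.58.1 in R 4.3.3 (lmFit and eBayes), with Benjamini-Hochberg adjustment over all tested genes and a threshold of 0.05. The fitting code was checked on simulated data. Exact permutation tests were two-sided. Group membership came from the sample titles, and no scan date or batch was given in the sources used here. Named genes were all 10 members, up to 4 called genes per list and comparison, Vnn1, and the 3 genes most like each called member by Pearson r. Tbx19, Tbx22 and the uncalled other T-box genes were named after their values were seen. Members and lists were chosen with earlier results of these data known. List means are the mean log2 value of the measured genes of a list. Promoter windows came from RefSeq, GRCm38.p6.

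Alternatives were no filter, a filter at the 50th percentile, the mean of probesets, trended and robust eBayes, array weights, cyclic loess, median centring, a replicate block, a fit of only the groups compared, and leaving out each tumor. With 1 probeset per T-box gene, the mean of probesets could not change its difference. The filters, eBayes options, block and fit of only the groups compared also left each difference unchanged and could move only its p-value.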

Additional observations from a re-analysis of the deposited data

Results flagged for a closer look

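In 45 groups of 4 tumors, 2 held a value set far apart from the others by Dixon's test, which chance alone does in about 1 in 20 groups. Tbx15 in VR tumor 2 was 9.64, while the other 3 VR tumors lay between 9.73 and 9.74. Tbx20 in VdR tumor 4 was 9.78, while the other 3 VdR tumors lay between 10.22 and 10.28, and it still exceeded every VR and every R tumor.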

How the results depend on the processing

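In VR against R tumors 3 T-box genes were called, 1 with trended and robust eBayes, 1 with only the groups compared, and 1 to 3 when single tumors were left out. With a replicate block, 2 were called. In VR against VdR tumors 0 were called, and 1, Tbx20, with only the groups compared (adjusted p = 0.0157). In VdR against R tumors Tbx20, whose difference was known, is left out of the count, and Tbx3 was called. Array weights or a replicate block added Tbx2 (0.42, adjusted p = 0.029, and 0.30, adjusted p = 0.0289). Deviations of same-numbered tumors correlated at -0.15 to 0.40 over 12 pairs, 8 of them above 0.1, so the numbers were not treated as pairing the tumors. The limit set for that, every pair above 0.1, is arbitrary. The highest values were those of tumor 2 (0.398, 0.356 and 0.227). Its skeletal muscle mean was also high in every group (8.30 in VR, 8.66 in VdR, 9.145 in R). Whether same-numbered tumors share an origin was not tested. The labels give no shared litter, batch or day. The block moved the calls over all genes to 3927 in VR against R (3500 without it), 1654 in VdR against R (1555) and 621 in VR against VdR tumors (570).

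Tbx20 in VR against R tumors lost its call with no filter (adjusted p = 0.0516), trended and robust eBayes (0.0698), only the groups compared (0.0794), without any 1 of the VR tumors (0.0623 to 0.091), and without R tumor 1 or 4. Tbx15 lost it with trended and robust eBayes (0.055), cyclic loess (0.0703), centring (0.0803), the block (0.0504), only the groups compared (0.0699), without VR tumor 1, 4 or 5 (0.082 to 0.092), and without R tumor 1, 4 or 5 (0.0586 to 0.112). The cause was not tested.

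Over all alternatives of single T-box genes, 402 values kept direction and call, 20 lost a call, 3 gained one and 25 turned sign. Among the 402 are all 17 of Tbx20 in VdR against R tumors, the difference known beforehand, and these are not read as support. The 402 also include settings that could not change a difference, so the tally overstates the number of separate checks. Those that turned were uncalled and near 0. Cyclic loess gave 0.026 for Tbx4 and 0.016 for Tbx5 in VR against R tumors, and -0.031 for Tbx15 in VdR against R tumors. Array weights gave 0.004 for Tbx5 in VR against R tumors, and -0.014 for Tbx6 and -0.015 for Tbx15 in VdR against R tumors. Centring gave -0.023 for Tbx6 and -0.02 for Tbx15 in VdR against R tumors. With single tumors left out, values ran from -0.042 to 0.009 for Tbx4, -0.001 to 0.181 for Tbx2 and -0.041 to 0.01 for Tbx5 in VR against R tumors. In VdR against R tumors they ran from -0.126 to 0.016 for Tbx1, -0.044 to 0.051 for Tbx6 and -0.031 to 0.043 for Tbx15, and in VR against VdR tumors from -0.05 to 0.052 for Tbx18. Array signal near the 25th percentile limits Tbx5, and 4 tumors per group limit small differences such as those of Tbx4 and Tbx6.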
